A study of Arabidopsis thaliana with 4 samples.

Results

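Heat shock proteins are chaperones, proteins that keep other proteins folded, and heat shock factors are the transcription factors that switch many of their genes on. Here 36 genes of *Arabidopsis thaliana* were followed, taken by locus identifier as the genes of HSP101, HSP90, HSP70, BiP and the small heat shock proteins of cytosol, plastid, mitochondrion, peroxisome and endoplasmic reticulum (ER), with HSFA2, HSFA1A and HSFB1. All 36 were found among the 32635 named rows of the table, 33 in a row of their own and 3 in a row merged with a neighbouring gene. Of the 33, 32 had a test between the groups, and BIP3 was listed at 0 in both.

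The samples were RNA-seq libraries of whole seedlings that carry both *daz3* and *tree1* mutations in the Columbia background, the mutations being shared by both groups. Seedlings grew in darkness at 24 °C for 3 days and then received 10 ppm ethylene in hydrocarbon-free air or that air alone for 4 hours, with 2 libraries in the ethylene group and 2 in the air group. The series addresses the function of TREE1, a zinc-finger protein, in ethylene signalling. No wild type was analysed here, and the values describe the double mutant alone, while the labels do not say whether the 2 libraries of a group came from separate cultures. P-values may therefore measure technical spread. The values are the authors' FPKM, fragments scaled by transcript length and library size, with 1 value per group, no SD and an unknown depth per library. In these whole seedlings, fewer cells of a type and less RNA per cell cannot be told apart.

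Chaperone families differ in their work. HSP70 proteins bind exposed stretches of unfolded chains, HSP90 proteins act late in the folding of client proteins such as kinases and receptors, HSP101 pulls proteins out of aggregates, and small heat shock proteins hold unfolding proteins in a state from which they can be rescued. In plants, many small heat shock protein genes, HSP101 and HSFA2 are known for very low expression until heat or another stress, when class A1 heat shock factors bind heat shock elements in their promoters, while most HSP90 and HSP70 genes of the organelles and several of the cytosol are expressed without stress.

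Of the mutated genes, TREE1 was listed at 0.327 FPKM with ethylene and at 0 in air, and DAZ3 at 0 in both groups. Neither had a test, and a listed 0 may be a failed estimate. Without a wild type for comparison, these values cannot check the genotype given in the labels. The root genes PYK10 and CASP1 had log2 fold changes of -0.08 and 0.05, and CAB1, a leaf and cotyledon gene, -0.19. PORA, abundant in etiolated tissue, was called lower, and the seed storage gene CRA1 was called higher, with 43.6 FPKM with ethylene and 11.8 FPKM in air. OLEO1, an oil body gene, had 10.4 FPKM with ethylene and 2.99 FPKM in air and was not called. The part of these tissue and seed reserve differences in the results below was not tested.

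Ethylene-treated seedlings had lower FPKM of 8 chaperone genes, among them 4 HSP90 genes, and no member was called higher by the same test. A gene is called here when its deposited p, adjusted by Benjamini-Hochberg over all tested rows, is under 0.05. Of the 32 tested genes, 8 were called lower and 0 higher, against 4.18% of 18696 tested rows called lower and 2.17% called higher. Among rows that name 1 locus, as those of the 32 genes do, the shares were 4.22% lower and 2.20% higher. Among rows with at least 5 FPKM in the larger group the shares were 5.13% lower and 2.81% higher, and 25 of the 32 genes, including all 8 that were called, reached that level. The median log2 fold change, ethylene over air, was -0.36 over the 32 genes and -0.02 over all tested rows. Values were below 0 for 26 genes and above 0 for 6. At an unadjusted p under 0.05, 14 genes were lower and 0 higher, against 11.2% of tested rows that name 1 locus lower and 7.78% higher.

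**Figure D1:**
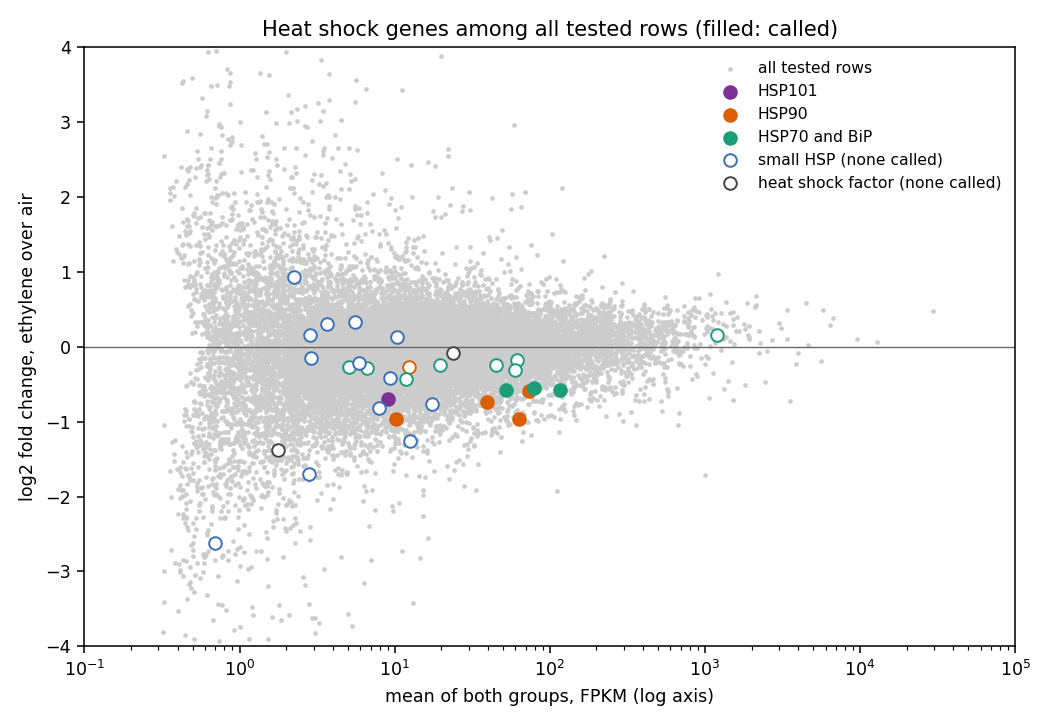
Log2 fold change (ethylene over air) against the mean of both groups in FPKM on a log axis, for all tested rows above 0 in both groups (grey) and the 32 tested heat shock genes (coloured, filled where called). The called genes lie below 0, and the small heat shock protein genes lie mostly at lower levels. 49 grey rows beyond a log2 fold change of 4 in either direction are not drawn.

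The levels spanned a wide range. HSC70-1, a constitutive cytosolic HSP70, stood far above all others, at 1261 FPKM with ethylene and 1131 FPKM in air, and held 66.3% of the summed FPKM of the 32 genes with ethylene and 55.5% in air. Next in order in both groups, among genes in rows of their own, came cpHSC70-1, HSP70-3 and HSP90.3. HSP90.7 had rank 7 with ethylene and rank 5 in air. Without replicate values, which neighbours in this order differ beyond their spread could not be assessed. The 31 genes other than HSC70-1 summed to 640.1 FPKM with ethylene and 906.1 FPKM in air, a ratio of 0.706, while with HSC70-1 the ratio was 0.933.

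**Figure D2:**
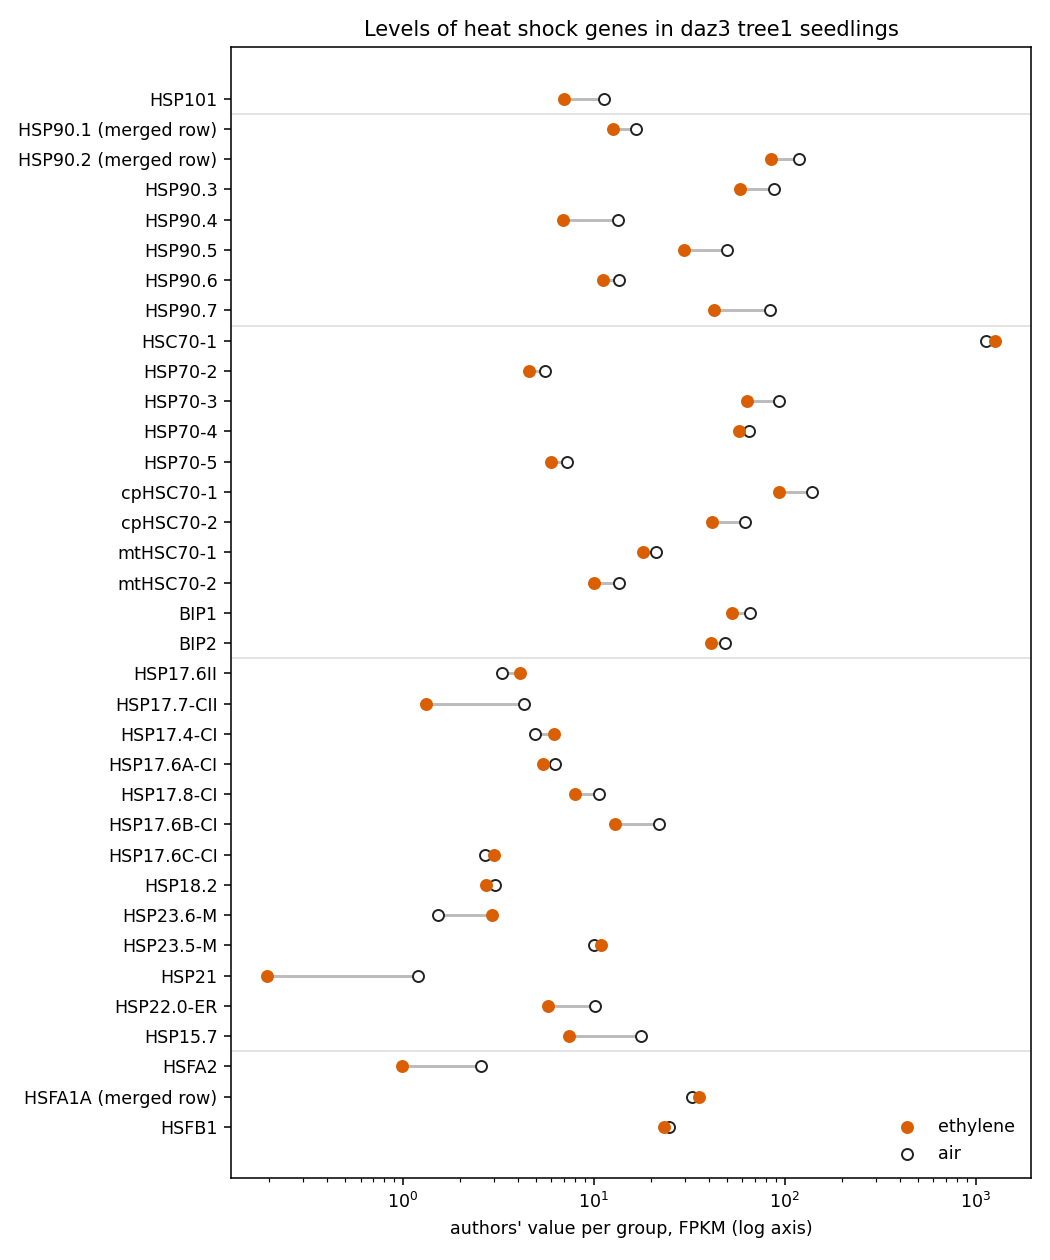
Authors' FPKM per group on a log axis for each heat shock gene with a test, ethylene as filled and air as open circles, with families divided by lines. HSC70-1 stands above all other genes in both groups, and the filled circle lies left of the open one for every HSP90 gene. BIP3, at 0 in both groups, is not drawn.

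HSP90 genes were lower across cytosol, plastid and ER. Of the 5 tested in a row of their own, 4 were called lower and all 5 had values below 0, with a median log2 fold change of -0.74. The shares called among all tested rows that name 1 locus were 4.22% lower and 2.20% higher. HSP90.7 (AT4G24190), the ER member known as SHEPHERD and needed for the folding of receptor proteins of shoot and floral meristems, fell to 42.8 FPKM with ethylene, against 83.8 FPKM in air. Its log2 fold change was -0.97, the lowest among the 5, with an adjusted p of 0.00227. HSP90.5 (AT2G04030), the plastid member, fell to 29.7 FPKM with ethylene, against 49.6 FPKM in air (log2 fold change -0.74 with an adjusted p of 0.00227). Both stood at the smallest p in the deposited table, 5e-05, so no interval is given for them.

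The cytosolic genes HSP90.3 and HSP90.4 fell as well. HSP90.3 (AT5G56010) had 58.3 FPKM with ethylene and 87.7 FPKM in air. Its log2 fold change was -0.59, with an adjusted p of 0.00404 and a 95% interval of -0.89 to -0.29 implied by the deposited p. HSP90.4 (AT5G56000) had 6.90 FPKM with ethylene and 13.4 FPKM in air, a log2 fold change of -0.96 with an implied interval of -1.44 to -0.48. HSP90.6 (AT3G07770), the mitochondrial member, was not called, with 11.2 FPKM with ethylene and 13.6 FPKM in air and an implied interval of -0.66 to 0.11. Whether HSP90.6 differs from the other members was not tested.

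Another pair of HSP90 genes lay in merged rows, so their values hold a second gene. The row of HSP90.2 (AT5G56030) and AT5G56020 was called lower, with 85.1 FPKM with ethylene and 118.4 FPKM in air (log2 fold change -0.48 with an adjusted p of 0.0375). That call was lost when log2 values were centred on the median of all tested rows, with an adjusted p of 0.051, and with a GC trend subtracted, with an adjusted p of 0.0566. HSP90.1 (AT5G52640), the strongly heat-inducible member, shared a row with AT5G52630, a gene of mitochondrial RNA editing. The row had 12.7 FPKM with ethylene and 16.6 FPKM in air and was not called, with an implied interval from -0.78 to -0.002.

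HSP90.2, HSP90.3 and HSP90.4 are near copies that lie close together on chromosome 5, and the starts of HSP90.4 and HSP90.3 point away from each other 1085 bases apart in the RefSeq annotation of TAIR10.1. Over their coding sequences of 2100 bases, HSP90.2 and HSP90.3 are 95.7% identical, HSP90.3 and HSP90.4 95.4%, and HSP90.2 and HSP90.4 94.3%. The longest identical runs of these pairs are 238, 185 and 152 bases. A read within such a run does not tell the genes apart, and the sources used here do not say how the authors' counting split such reads. The first 120 coding bases, from RefSeq, are shown because they display how few positions separate the copies. Capitals mark the 7 positions at which the copies are not all alike.
HSP90.2: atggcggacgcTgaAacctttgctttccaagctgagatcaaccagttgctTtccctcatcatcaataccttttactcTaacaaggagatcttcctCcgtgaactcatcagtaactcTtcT
HSP90.3: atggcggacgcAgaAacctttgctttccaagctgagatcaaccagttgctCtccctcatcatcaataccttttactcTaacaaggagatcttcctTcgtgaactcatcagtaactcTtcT
HSP90.4: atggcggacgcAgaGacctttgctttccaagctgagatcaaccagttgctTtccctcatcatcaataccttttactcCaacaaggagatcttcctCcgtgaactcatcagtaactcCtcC

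**Figure D3:**
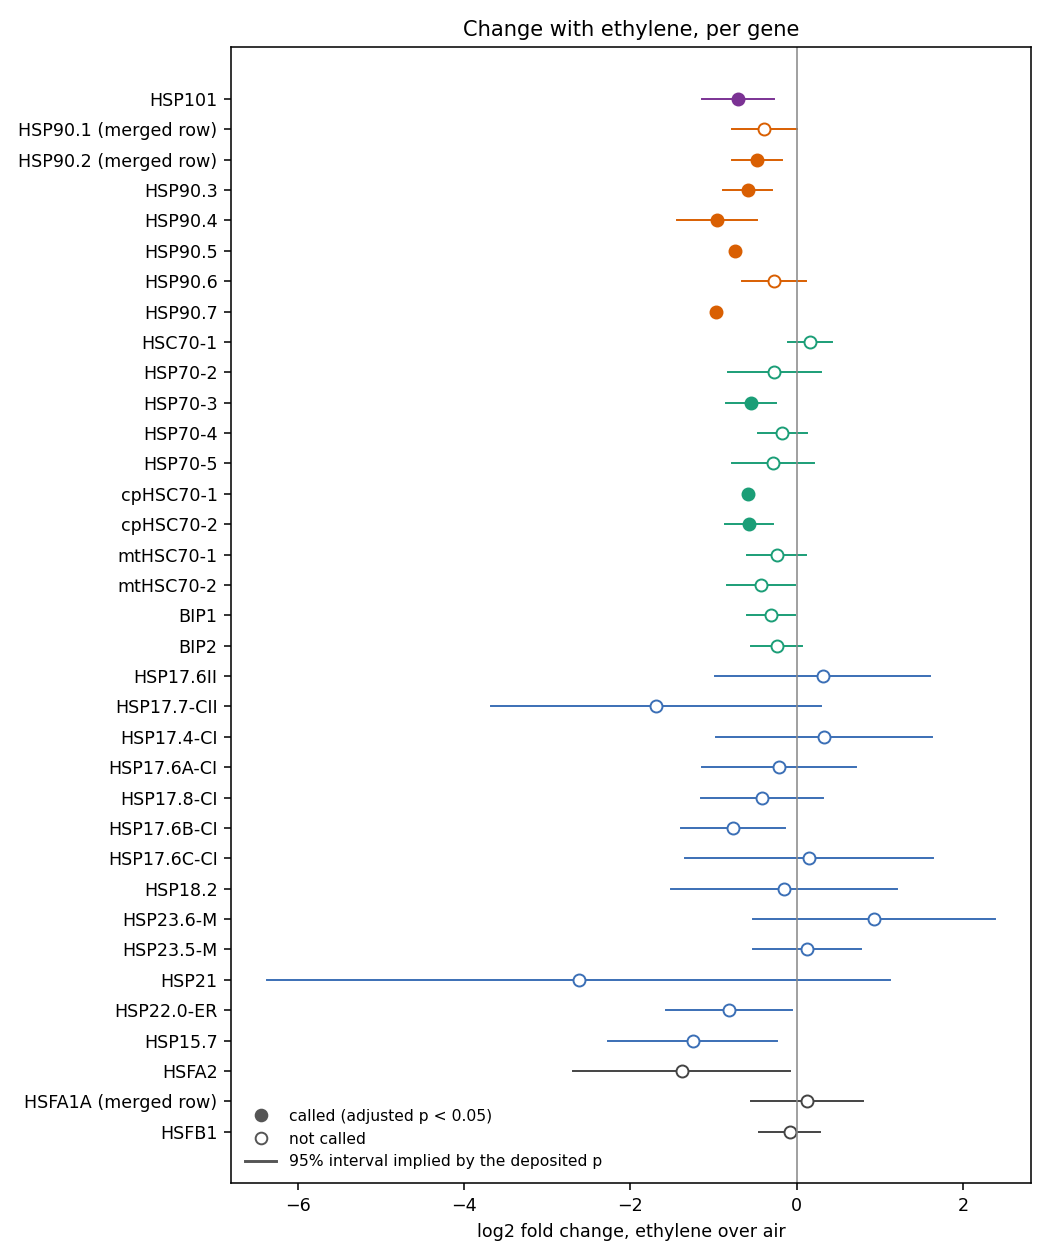
Log2 fold change (ethylene over air) per gene, with 95% intervals implied by the deposited p and filled circles for called genes. All called genes lie left of 0. No interval is drawn for HSP90.5, HSP90.7 and cpHSC70-1, which stood at the smallest deposited p, and merged rows are marked.

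HSP70 genes were lower in the plastid, and in the cytosol 1 of 5 was called. Of 11 tested HSP70 and BiP genes 3 were called lower and 0 higher, with a median log2 fold change of -0.29. Over all tested rows that name 1 locus, the shares called were 4.22% lower and 2.20% higher. Both plastid genes fell, and their proteins drive the import and folding of plastid proteins. The gene cpHSC70-1 (AT4G24280) had 93.2 FPKM with ethylene and 139.4 FPKM in air (log2 fold change -0.58 with an adjusted p of 0.00227). Its partner cpHSC70-2 (AT5G49910) had 41.8 FPKM with ethylene and 62.1 FPKM in air, a log2 fold change of -0.57. With HSP90.5, all 3 plastid HSP90 and HSP70 genes were called lower, and their summed FPKM was 164.6 with ethylene and 251.2 in air.

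In the cytosol, HSP70-3 (AT3G09440) fell to 63.8 FPKM with ethylene, against 93.4 FPKM in air. Its log2 fold change was -0.55, with an adjusted p of 0.0115 and an implied interval of -0.85 to -0.24. HSC70-1 (AT5G02500), the most abundant member, was not called, and its log2 fold change of 0.16 had an implied interval of -0.11 to 0.42. That value became -0.05 when scaled to reference genes and -0.03 with a GC trend subtracted. The coding sequences of HSC70-1 and HSP70-3 are 84.4% identical, with a longest identical run of 41 bases. HSP70-4 (AT3G12580), a heat-inducible member, had 57.4 FPKM with ethylene and 64.7 FPKM in air, with an implied interval of -0.46 to 0.12. HSP70-2 and HSP70-5 had 4.60 and 5.95 FPKM with ethylene and 5.54 and 7.25 FPKM in air, and neither was called.

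In the mitochondrion and the ER no HSP70 gene was called. The mitochondrial mtHSC70-1 had 18.0 FPKM with ethylene and 21.3 FPKM in air, and mtHSC70-2 had 10.1 FPKM with ethylene and 13.6 FPKM in air, with implied intervals of -0.59 to 0.11 and -0.84 to -0.03. BIP1 and BIP2 encode the HSP70 of the ER lumen, which works beside HSP90.7. BIP1 had 53.0 FPKM with ethylene and 65.6 FPKM in air, and BIP2 41.4 FPKM with ethylene and 48.9 FPKM in air. Their coding sequences are 97.5% identical, with a longest identical run of 323 bases, so their sum is the safer value, 94.4 FPKM with ethylene and 114.5 FPKM in air. The ratio of HSP90.7 to that sum in FPKM was 0.454 with ethylene and 0.732 in air, and the difference between these genes was not tested. BIP3, the BiP gene known to be induced by ER stress, was listed at 0 in both groups.

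HSP101 (AT1G74310), the cytosolic disaggregase needed for acquired heat tolerance, fell to 6.95 FPKM with ethylene, against 11.3 FPKM in air. Its log2 fold change was -0.70, with an adjusted p of 0.0296 and an implied interval of -1.13 to -0.27. It was the single called gene among 18 tested genes classed by textbook knowledge as strongly induced by heat or ER stress. BIP3, the member known for ER stress, had no test. Of 14 tested constitutive genes, 7 were called lower. Tested rows that name 1 locus were called lower in 4.22% and higher in 2.20%. The share called lower among the inducible genes, 5.56%, lies near that of all such rows. Depth of information moved with these classes, since the median implied standard error was 0.50 among the inducible and 0.17 among the constitutive genes, and the median transcript length was 1009 and 2594.5 bases. Its part in the difference was not tested.

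Small heat shock protein genes were detected in both groups at low levels, and none was called. The 13 genes ranged from 0.195 to 12.9 FPKM with ethylene and from 1.20 to 21.9 FPKM in air, with 8 values below and 5 above 0 on the log2 scale and a median of -0.22. At an unadjusted p under 0.05 in the authors' deposited table, 3 were lower and 0 higher. They were HSP17.6B-CI, HSP22.0-ER and HSP15.7. At that threshold 11.2% of tested rows that name 1 locus were lower and 7.78% higher. By the adjusted p, 4.22% of such rows were called lower and 2.20% higher, so 13 genes may hold no call. The cytosolic class I gene HSP17.6B-CI (AT2G29500) had 12.9 FPKM with ethylene and 21.9 FPKM in air, with an adjusted p of 0.139. The peroxisomal HSP15.7 (AT5G37670) had 7.46 FPKM with ethylene and 17.78 FPKM in air, a log2 fold change of -1.25 with an implied interval of -2.27 to -0.23. The ER-located HSP22.0-ER (AT4G10250) had 5.76 FPKM with ethylene and 10.1 FPKM in air. These 3 genes did not pass the adjusted threshold.

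The other small heat shock protein genes had values on both sides of 0 and wide intervals. The plastid HSP21 (AT4G27670) had 0.195 FPKM with ethylene and 1.20 FPKM in air, and its implied interval ran from -6.37 to 1.13. The mitochondrial HSP23.6-M (AT4G25200) had 2.93 FPKM with ethylene and 1.54 FPKM in air, with an interval of -0.52 to 2.38. Of the class II pair, HSP17.7-CII (AT5G12030) had 1.33 FPKM with ethylene and 4.30 FPKM in air, and HSP17.6II (AT5G12020) had 4.09 FPKM with ethylene and 3.30 FPKM in air. The coding sequences of this pair are 87.3% identical, so its values may hold reads of each other. HSP23.5-M, HSP17.8-CI, HSP17.4-CI and HSP17.6A-CI had 10.9, 7.96, 6.17 and 5.41 FPKM with ethylene and 9.98, 10.6, 4.91 and 6.30 FPKM in air. HSP17.6C-CI and HSP18.2 stood near 3 FPKM in both groups. With a median implied standard error of 0.66 over the 13 genes, against 0.27 over all tested rows, a change of the size seen for HSP90 genes was not detectable for most of them.

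The heat shock factors were not called. HSFA2 (AT2G26150), the factor that prolongs the heat response, had 0.986 FPKM with ethylene and 2.57 FPKM in air, a log2 fold change of -1.38 with an implied interval of -2.69 to -0.08 and an adjusted p of 0.23. HSFB1 (AT4G36990), a class B factor that represses heat shock genes, had 23.2 FPKM with ethylene and 24.7 FPKM in air, with an implied interval of -0.46 to 0.28. HSFA1A (AT4G17750), a master regulator that is present before heat, lay in a row merged with AT4G17740, with 35.8 FPKM with ethylene and 32.8 FPKM in air. Among 17 tested factors outside these 3 genes none was called in either direction by the Benjamini-Hochberg adjusted p, and at an unadjusted p under 0.05, 1 was lower and 1 higher. At that unadjusted threshold 11.2% of tested rows that name 1 locus were lower and 7.78% higher. By the adjusted p, 4.22% of such rows were called lower and 2.20% higher, so 17 genes may hold no call. The 2 factors of the 17 with the highest expression, HSFB2A and HSFA1D, had log2 fold changes of -0.15 and -0.16. HSFA7A was named after its values were seen, because it stood just outside the threshold, with 3.01 FPKM with ethylene and 11.4 FPKM in air and an adjusted p of 0.0514.

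Partner proteins of HSP90 and HSP70 were compared next. Of 17 co-chaperone genes tested in a row of their own 3 were called lower and 0 higher, with 15 values below 0 and a median log2 fold change of -0.39. Left out of these counts were HSP70-14 and HSP70-15, which share a merged row and were named after its values were seen. That row had 116.1 FPKM with ethylene and 108.9 FPKM in air, a log2 fold change of 0.09, and was not called. Among all tested rows that name 1 locus, 4.22% were called lower and 2.20% higher. At an unadjusted p under 0.05, 12 co-chaperone genes passed, 11 of them lower, against 11.2% of such rows lower and 7.78% higher. HOP1, whose protein links HSP70 with HSP90, fell to 12.5 FPKM with ethylene, against 24.0 FPKM in air (log2 fold change -0.95 with an adjusted p of 0.00227). CHIP, a ubiquitin ligase that acts on chaperone clients, fell to 9.58 FPKM with ethylene, against 16.6 FPKM in air. ROF1, a peptidyl-prolyl isomerase that binds HSP90, fell to 23.8 FPKM with ethylene, against 35.4 FPKM in air. The CHIP call was lost when centred on the median of all tested rows (adjusted p of 0.0546), and both the CHIP and the ROF1 call were lost with a GC trend subtracted (adjusted p of 0.101 and 0.0561).

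Of 11 tested genes of organelle chaperonins and ClpB proteins, 1 was called lower and 0 higher, with a median of -0.27. The shares called among all tested rows that name 1 locus were 4.22% lower and 2.20% higher. CPN60B1, the main beta subunit of the plastid chaperonin, fell to 229.4 FPKM with ethylene, against 351.4 FPKM in air (log2 fold change -0.62 with an adjusted p of 0.00227). CPN60A1, the alpha subunit of the same complex, was named after its values were seen and had 417.2 FPKM with ethylene and 434.2 FPKM in air. The ratio of CPN60B1 to CPN60A1 in FPKM was 0.550 with ethylene and 0.809 in air, and the difference was not tested. That ratio leaves out the other listed beta subunit genes, CPN60B2 and CPN60B3, so it does not describe all beta subunits. Both were named after their values were seen. Their log2 fold changes were -0.23 and -0.39, and neither was called.

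Other ER folding genes and other heat-induced genes held no calls. For comparison, 4.22% of tested rows that name 1 locus were called lower and 2.20% higher. At such shares, lists of this size may hold no call. At an unadjusted p under 0.05, 11.2% of these rows were lower and 7.78% higher. Of 19 tested genes of ER folding and the unfolded protein response 0 were called in either direction by the Benjamini-Hochberg adjusted p, with 4 lower and 0 higher at an unadjusted p under 0.05 and a median of -0.08. PDIL2-1 and CNX1, the 2 with the highest expression, encode a disulfide isomerase and the lectin chaperone calnexin, and had log2 fold changes of -0.11 and -0.05. CRT3, of the same ER list, was named after its values were seen and stood as near the threshold as HSFA7A. It had 24.2 FPKM with ethylene and 35.5 FPKM in air, with a Benjamini-Hochberg adjusted p of 0.0514. Of the 19 ER genes, 12 had values below 0 and 7 above. Of 7 tested other heat-induced genes 0 were called, with 1 lower at an unadjusted p under 0.05. It was MBF1C, a heat-induced coactivator with 67.2 FPKM with ethylene and 111.7 FPKM in air and an adjusted p of 0.195. HSP18.5, also among the 2 most highly expressed there, had a log2 fold change of -0.04.

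**Figure D4:**
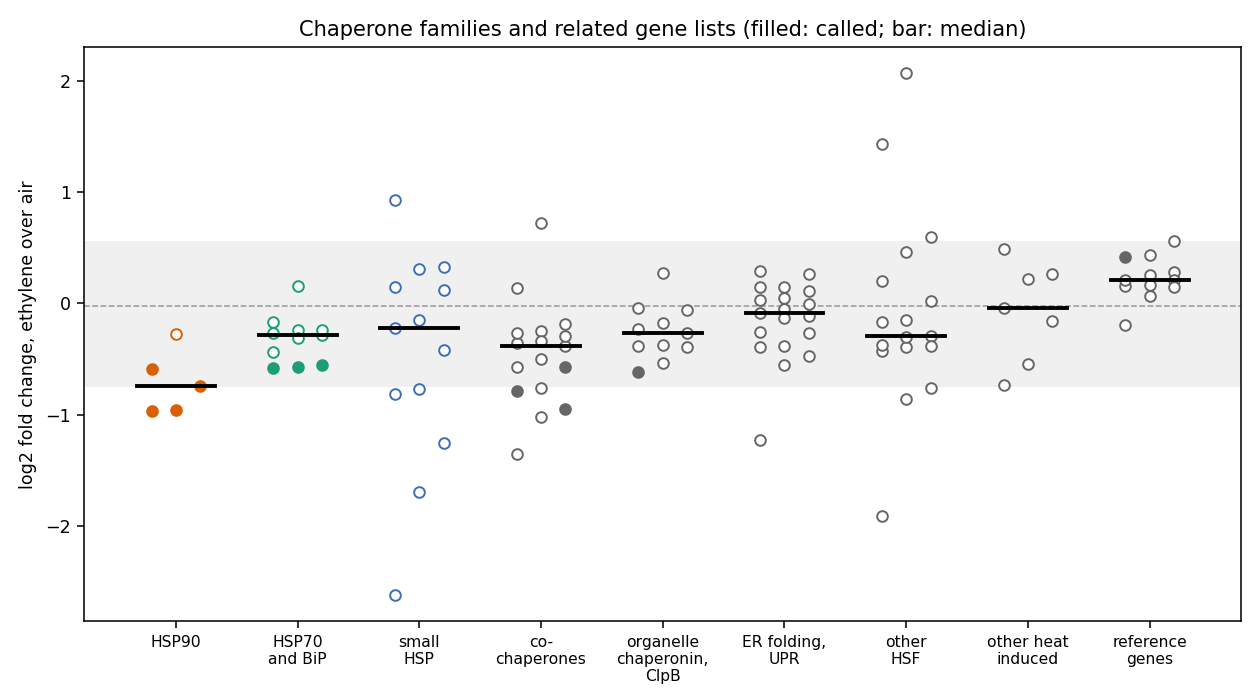
Log2 fold change (ethylene over air) of each gene tested in a row of its own, filled where called, with black bars at the medians. The genes are those of the 3 larger heat shock families and 6 related lists. The dashed line is the median of all tested rows, -0.02, and the grey band spans their 10th to 90th percentile, -0.74 to 0.55. The median of HSP90 genes, -0.74, lies lowest among the groups drawn.

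The scaling of the libraries moves these values together. Of 12 reference genes, 11 had values above 0 with a median log2 fold change of 0.21, and 1, EF1A, was called higher, a call lost with a GC trend subtracted (adjusted p of 0.291). With that median subtracted from all log2 values, 13 of the 32 heat shock genes were called lower and 0 higher, against 151 higher and 2209 lower over all tested rows. The same 8 genes were among the 13, and mtHSC70-2, BIP1, BIP2, HSP17.6B-CI and HSP15.7 were added. Values above 0 for HSP17.6C-CI, HSP23.5-M and the HSFA1A row turned negative on that scale, as that of HSC70-1 did.

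The sequence before the first transcripts was searched for heat shock elements, which are built from alternating GAA and TTC units, in 250 bases before the start of each gene's first transcript. Pairs of units were searched as GAANNTTC and TTCNNGAA and triplets as 3 alternating units with 2 bases between neighbours, on both strands, and each triplet holds overlapping pairs. A pair was present in 16.3% and a triplet in 0.401% of 27406 windows of protein-coding genes. Of the 36 heat shock genes, 8 had a pair (22.2%) and 3 a triplet (8.33%), the triplets being in HSP17.4-CI, HSP17.6C-CI and HSFA2. Pairs were present for 6 of 13 small heat shock protein genes and for 0 of 19 HSP90, HSP70 and BiP genes. Exact letters alone were counted, so a 0 does not show that elements with a changed letter are absent. Windows are not all promoter sequence, because 17 of the 36 hold bases of annotated exons of other transcripts or genes. Among HSP90, HSP70 and BiP genes 9 of 19 windows do, with 9 to 244 exon bases each and the most in HSP90.2, and among small heat shock protein genes 5 of 13 do, with 10 to 226 exon bases. A count of 0 therefore speaks for less than 250 bases of promoter in these genes. The first HSP90.1 transcript is annotated with coding bases alone, 2103 in all, so its window may reach into transcribed sequence. Of the 8 genes called lower, HSP101 alone had a pair, from base -31 to -24, and all 8 of those bases lie inside an exon of the annotated HSP101 gene, upstream of its first transcript only. Outside annotated exons, pairs were present for the 6 small heat shock protein genes and HSFA2, and for none of the 8 genes called lower. The ER stress element ERSE-I, searched as CCAAT, any 9 bases and CCACG on both strands, was present in 0.317% of windows and in that of HSP90.7, from base -22 to -4. HSP90.7 was the 1 gene of the 36, and of the 5 ER genes, with that element. A second element, ERSE-II, searched as ATTGG, any base and CCACG on both strands, was present in 0.0547% of windows and for 0 of the 36 genes.

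These windows are shown because they hold the motifs, in RefSeq sequence of TAIR10.1, read 5′ to 3′ towards the gene, with motif bases in capitals and any bases within annotated exons left out. HSP90.7, which fell, is on the minus strand at chr4:12556059-12556267, HSP17.4-CI, which was not called, on the minus strand at chr3:16984842-16985091 and HSFA2, also not called, on the plus strand at chr2:11135466-11135623. The last printed bases of HSP17.4-CI, at chr3:16984842-16984867, lie inside the annotated span of its gene but in no annotated exon. Its motifs lie outside that span.
HSP90.7: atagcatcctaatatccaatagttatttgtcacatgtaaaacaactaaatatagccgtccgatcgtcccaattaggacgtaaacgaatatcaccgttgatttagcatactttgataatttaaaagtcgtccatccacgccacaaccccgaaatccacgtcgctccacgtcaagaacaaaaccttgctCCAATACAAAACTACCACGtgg
HSP17.4-CI: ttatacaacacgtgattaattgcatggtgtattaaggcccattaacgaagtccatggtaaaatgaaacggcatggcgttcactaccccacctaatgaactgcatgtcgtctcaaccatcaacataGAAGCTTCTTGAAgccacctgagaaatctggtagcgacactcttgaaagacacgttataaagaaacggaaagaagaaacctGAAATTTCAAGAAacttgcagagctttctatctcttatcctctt
HSFA2: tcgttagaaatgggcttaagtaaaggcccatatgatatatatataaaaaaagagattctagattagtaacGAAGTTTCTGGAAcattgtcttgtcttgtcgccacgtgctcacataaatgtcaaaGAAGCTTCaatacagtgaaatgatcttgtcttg
A match describes letters in these windows only and says nothing of binding.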

How the data were processed

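The data were 4 RNA-seq libraries, 2 after ethylene and 2 after air, and 1 table of the authors' comparison. The submitters' processing notes name the genome build TAIR10 and the tools TopHat2 (2.0.9) and Cuffdiff (2.0.1). Their settings, library scaling, read length and strand are not given in the sources here. The table holds 1 value per group, taken as the authors' FPKM because the notes name Cuffdiff, and an unadjusted p-value per row, per the file headers. Depth per library is unknown.

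Of 32878 rows, 243 name no gene and stayed out. The 18696 named rows with a deposited p below 1 were tested, by Benjamini-Hochberg adjustment at 0.05. Log2 fold changes are log2 ratios of the deposited FPKM with no pseudocount. Standard errors and 95% intervals follow from each deposited p by a normal approximation. At the smallest p, 5e-05, the standard error is an upper limit and no interval is given. Where a listed gene outside the 36 had more than 1 row, the row with the higher mean was used. The members and gene lists were chosen with earlier results of these data known. Named genes were all members, called genes of other lists (at most 4) or else the 2 most highly expressed. HSFA7A, CRT3, CPN60A1, CPN60B2 and CPN60B3 were added after their values were seen, and tissue markers are all given.

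Names came from RefSeq (TAIR10.1), which lists all 36 loci, or from common use where it gives a family only. Coding sequences were aligned globally with Biopython 1.88. The call procedure was run on simulated data with normal errors of the size implied by the deposited p, without rows at the smallest p. Such a run cannot show whether those errors hold for 2 libraries per group. The software was matplotlib 3.10.9, numpy 2.4.6, pandas 2.3.3, Python 3.11.15, scipy 1.17.1 and statsmodels 0.14.6.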

Additional observations from a re-analysis of the deposited data

How the results depend on the processing

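The 8 lower and 0 higher calls were recomputed under 9 alternatives. Scaled to the reference genes, 13 genes were lower. Under the other 8 the count of lower calls ran from 6, at a threshold of 0.01, to 9, with merged rows counted, and 0 genes were higher under all 9. At 0.01 HSP101 and HSP70-3 were lost, and HSP101 was also lost when rows with a p of 1 entered the adjustment. The median log2 fold change ran from -0.57, scaled to the reference genes, to -0.34, with a pseudocount of 1 FPKM. Subtraction of a trend with transcript GC content was chosen after seeing the data and left the same 8 calls. No paired analysis was possible because the table holds 1 value per group and no column per library, and for the same reason no library could be left out. Library depth, and with it the precision for genes of low level, is unknown.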
